A study of Homo sapiens with 6 samples.

Results

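The retinoblastoma pathway genes described here are 10 genes of 35268 with a name in the deposited table of Rh30 cells. They were taken by symbol: the pocket protein genes RB1, RBL1 and RBL2, the small phosphatase genes CTDSPL, CTDSP1 and CTDSP2, the MuvB genes LIN9 and LIN54, and the transcription factor genes MYBL2 and FOXM1. The set was chosen in part by the drug contrast itself, since CTDSPL was among the largest falls between DMSO and drug, so the differences of these 10 genes are given as a description, with no p-value. Rh30 is an established line from a fusion-positive rhabdomyosarcoma (FP-RMS), in which the fusion factor PAX3-FOXO1 drives the tumor. Cells received 1 µM of the drug, a small molecule directed at ETS factor interactions that the deposited columns call YK, dissolved in DMSO, or DMSO alone, for 24 hours, with 3 libraries of poly(A) RNA in each group. One line at 1 dose and 1 time was measured, and the labels do not say whether the libraries of a group came from separate cultures, so the p-values measure the spread between these libraries, which may be technical.

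Pocket proteins hold E2F transcription factors in check until cyclin-dependent kinases phosphorylate them, and phosphatases return them to their active form. RBL1 and RBL2 join E2F4 or E2F5, a DP partner and the MuvB core (LIN9, LIN37, LIN52, LIN54 and RBBP4) in the DREAM complex, which silences cell cycle genes in resting cells. In cycling cells MuvB leaves the pocket protein and binds MYBL2 and later FOXM1, and then activates genes of mitosis. CTDSPL, CTDSP1 and CTDSP2 encode small C-terminal domain phosphatases that act on RNA polymerase II, and CTDSPL has been described as a tumor suppressor that dephosphorylates RB1.

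The libraries held between 16724650 and 24677433 reads on named genes, and each of the 10 genes had at least 214 reads in every library. Values are normalized counts, that is reads divided by a size factor of the library. DMSO replicate 1 stood apart. Its mean correlation with the remaining libraries across genes was 0.989, where no other library was under 0.992, and mitochondrial genes took 6.05% of its reads compared with 4.74% to 5.03% elsewhere. Among the DMSO libraries it was the highest for RB1, RBL1, RBL2, CTDSPL, LIN9 and LIN54 and the lowest for CTDSP1, CTDSP2, MYBL2 and FOXM1, so the difference of each of the 10 genes is given with and without it. Of the muscle tumor markers, MYOD1, MYOG, DES, PAX3, FOXO1, CDH15 and CHRNA1 had at least 1550 normalized counts in every library, while MYF5 was at or near 0. The groups did not overlap for FOXO1, which was lower after the drug, or for DES and MYOG, which were higher. Of the markers of other cell types, PTPRC and CD3E (blood) and KRT5 (epithelium) reached at most 1.00 normalized count, while EPCAM (50.1 to 88.3), KRT18 (20.6 to 41.7), PECAM1 (14.1 to 29.0), VWF, CDH5 and LUM were low but present. The collagen gene COL1A1 moved with the groups, at 579, 691 and 638 in DMSO replicates and 816, 824 and 774 after the drug, without overlap, whereas the other fibroblast markers, LUM and DCN, had at most 29.0. The part of these markers in the results was not tested.

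After YK the normalized counts of CTDSPL, RB1, RBL1, RBL2, LIN54, MYBL2 and FOXM1 lay below all DMSO values in each drug-treated library, and those of CTDSP2 lay above. Groups without overlap were common, at 26.0% of all genes tested (15.1% lower and 10.9% higher). In limma's fit over 13930 genes, CTDSPL and MYBL2 were among the genes called lower at an adjusted p-value under 0.05, as were 2.15% of all genes tested, while none of the 10 was called higher, as 1.26% were (3.41% in either direction). The contrast had been used to choose the genes, so nothing is read from these counts. The median log2 fold change of the 10 genes was -0.20, and that of all genes tested was -0.01.

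**Figure D1:**
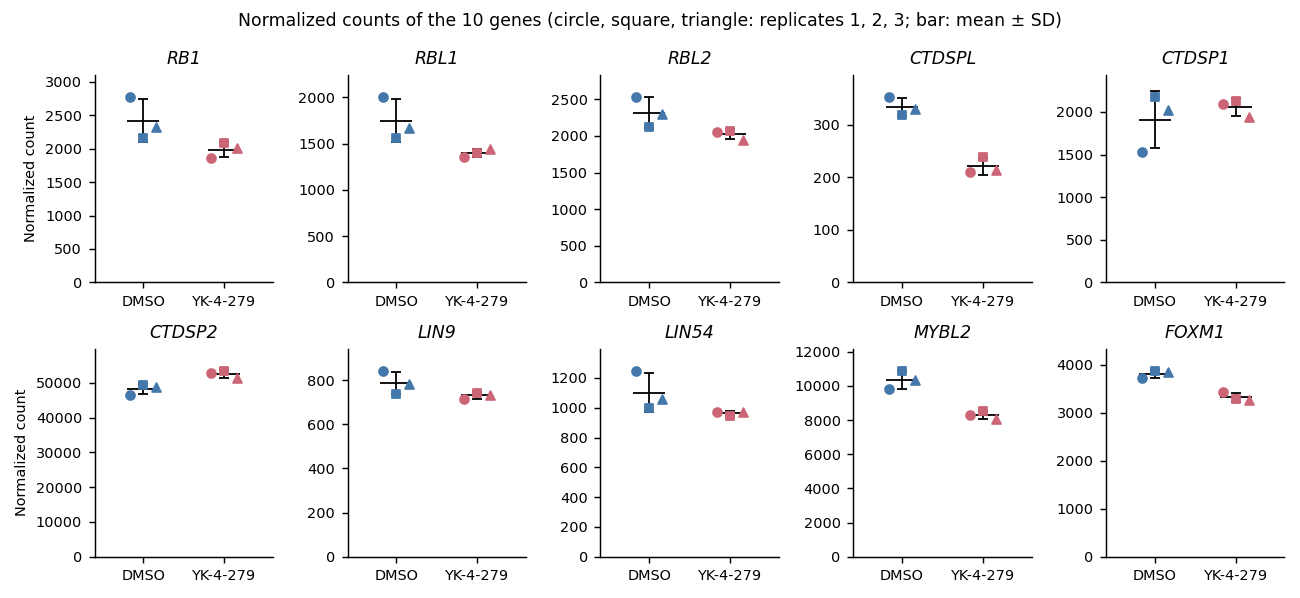
Normalized counts (vertical axes, each from 0) of the 10 genes in the 3 DMSO and 3 YK libraries, with the replicates as separate symbols and the mean ± SD as a bar. For CTDSPL the 3 drug-treated libraries sit between 210 and 239 and the 3 DMSO libraries between 319 and 353, whereas the groups overlap for CTDSP1 and LIN9.

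CTDSPL showed the largest fall of the 10 genes. It lies on the plus strand at chr3:37861880-37984469 of hg38. DMSO replicates 1, 2 and 3 had 353, 319 and 331 normalized counts of CTDSPL, and YK replicates 1, 2 and 3 had 210, 239 and 214. Every drug-treated library lay below every DMSO library, and the gap between the groups was wider than the range within either. The mean of 3 libraries was 334 ± 17.4 (SD) for DMSO and 221 ± 15.8 for YK, a ratio of 0.661. Its log2 fold change was -0.60 (standard error, SE, 0.10, 95% interval -0.81 to -0.38). By size of fall it ranked 85 among all genes tested. It ranked 6 among the 296 genes called lower with a mean of at least 100, close to FAM111B (-0.60) and MNS1 (-0.59). The size of this fall was part of why the genes were chosen, so these ranks describe that choice and are no test of it. CTDSPL was also the least abundant of the 10 genes, with 214 to 396 reads per library, so that counting error alone was up to 6.8% of a value. Without DMSO replicate 1 its log2 fold change was -0.56.

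The paralogs of CTDSPL had log2 fold changes above 0 in the fit of all libraries. CTDSP2, on the minus strand at chr12:57819927-57846729, had 46423, 49349 and 48882 normalized counts in DMSO replicates 1, 2 and 3 and 52805, 53350 and 51232 in the drug-treated replicates. Its drug-treated libraries were all above the DMSO libraries, at a ratio of means of 1.09 (log2 fold change 0.12, SE 0.05). Without DMSO replicate 1 it was 0.095. With quantile normalization it was 0.17, and the gene was then among those called higher. CTDSP1, at chr2:218397136-218405941, had 1528, 2176 and 2024 normalized counts with DMSO and 2098, 2131 and 1934 with the drug. Here the groups overlapped, and the log2 fold change of 0.12 (SE 0.10) became -0.03 without DMSO replicate 1, the lowest library.

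The proportions within this small family do not depend on the size factor of each library. CTDSPL made up 0.731%, 0.615% and 0.645% of the summed normalized counts of the 3 genes in DMSO replicates 1, 2 and 3 and 0.381%, 0.429% and 0.401% in the drug-treated replicates. CTDSP2 made up between 95.2% and 96.1% in all 6 libraries. The share of CTDSPL was thus lower in each drug-treated library than in each DMSO library, against a total that was almost wholly CTDSP2. These are shares of counts and are not corrected for the lengths of the genes.

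Each gene of this family carries a miR-26 precursor inside an intron, on its own strand. MIR26A1 lies in CTDSPL at chr3:37969404-37969480, MIR26A2 in CTDSP2 at chr12:57824609-57824692 and MIR26B in CTDSP1 at chr2:218402646-218402722. Their main mature forms are shown because they share 1 seed, written in capitals (bases 2 to 8, RefSeq, GRCh38.p14):
hsa-miR-26a-5p: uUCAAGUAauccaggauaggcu
hsa-miR-26b-5p: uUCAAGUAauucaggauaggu
The precursors MIR26A1 and MIR26A2 give the same miR-26a-5p, so a CTDSPL transcript and a CTDSP2 transcript can each be a source of it. Poly(A) libraries do not measure mature miRNA. MIR26A1 was listed at 0 reads in all 6 libraries, MIR26B had at most 1 read, and MIR26A2 had 4, 5 and 4 reads with DMSO and 8, 5 and 6 with the drug, all below the minimum for testing.

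The genes whose log2 values followed CTDSPL most closely over the 6 libraries were TMX1, MGAT5, TUBA1B, C1QTNF3 and MAP3K20, with Pearson's r from 0.994 to 0.997 among 10698 genes with a mean of at least 100. All 5 were lower with the drug, with log2 fold changes from -0.45 for C1QTNF3 to -0.16 for MGAT5. The likeness rests mainly on the difference between the groups, which these points share.

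Among the pocket proteins, RB1 is the founding tumor suppressor of the family. It lies at chr13:48303744-48599436 and had 2774, 2162 and 2319 normalized counts in DMSO replicates 1, 2 and 3 and 1854, 2077 and 2015 in the drug-treated replicates. The groups did not overlap, but the gap between them was narrower than the range within either. The log2 fold change was -0.28 (SE 0.09, 95% interval -0.46 to -0.10), and -0.18 without DMSO replicate 1.

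RBL1, which encodes p107 and is itself a classic E2F target, lies on the minus strand at chr20:36996349-37095997. Its normalized counts were 2005, 1557 and 1673 with DMSO and 1356, 1399 and 1446 with the drug. The drug-treated values were tightly grouped below all DMSO values, at 0.802 of the DMSO mean (log2 fold change -0.31, SE 0.08). Without DMSO replicate 1 it was -0.21. RBL2, which encodes p130, the pocket protein of resting cells, lies at chr16:53433977-53491648 and had 2533, 2119 and 2296 normalized counts with DMSO and 2050, 2068 and 1941 with the drug. Its log2 fold change of -0.19 (SE 0.07) was -0.13 without DMSO replicate 1.

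The pocket protein genes kept nearly the same proportions to each other. RB1 made up between 35.3% and 37.9% of their summed normalized counts, RBL1 between 25.2% and 27.4%, and RBL2 between 34.6% and 39.0%, and the ranges of the DMSO and drug-treated libraries overlapped for each. RBL2 shares exon sequence with AKTIP and an unnamed gene, both on the opposite strand. RBL1 and the phosphatase gene CTDSP1 each share exon sequence with an unnamed antisense gene. Whether reads were counted by strand is not given in the sources used here.

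LIN9 and LIN54 belong to the MuvB core, in which LIN54 binds the DNA element called CHR (cell cycle genes homology region). LIN54, on the minus strand at chr4:82909973-83012926, had 1246, 997 and 1059 normalized counts with DMSO and 973, 942 and 971 with the drug. Its groups did not overlap, and its log2 fold change of -0.19 (SE 0.08) was -0.095 without DMSO replicate 1. LIN9, at chr1:226231149-226309869, had 841, 739 and 784 normalized counts with DMSO and 715, 743 and 734 with the drug. These ranges overlapped, and the log2 fold change was -0.11 (SE 0.07), or -0.059 without DMSO replicate 1.

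MYBL2 and FOXM1 encode the activators that take the place of the pocket protein on MuvB. MYBL2, at chr20:43667019-43716495, had 9803, 10866 and 10361 normalized counts in DMSO replicates 1, 2 and 3 and 8315, 8502 and 8043 in the drug-treated replicates. The gap between the groups was wider than the range within either. The mean went from 10343 ± 531 to 8287 ± 231 (SD, n = 3 each), a ratio of 0.801 (log2 fold change -0.32, SE 0.06, 95% interval -0.44 to -0.20). FOXM1, at chr12:2857680-2877174, had 3720, 3866 and 3844 normalized counts with DMSO and 3424, 3282 and 3255 with the drug, a log2 fold change of -0.20 (SE 0.06, 95% interval -0.32 to -0.08). Unlike the pocket protein and MuvB genes, both had larger falls without DMSO replicate 1, at -0.36 for MYBL2 and -0.22 for FOXM1. FOXM1 shares exon sequence with ITFG2 on the opposite strand.

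**Figure D2:**
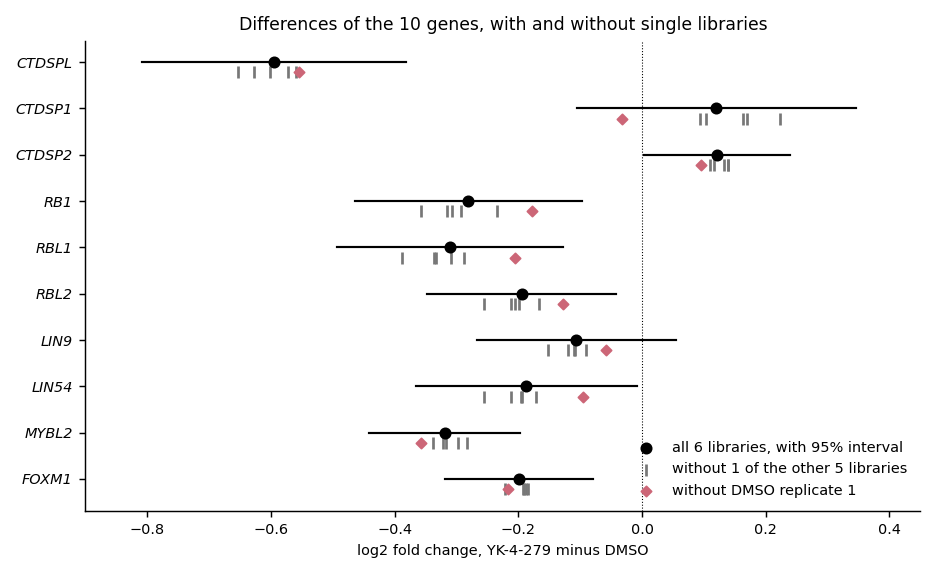
Log2 fold change of YK minus DMSO (horizontal axis) for the 10 genes, with 95% intervals from limma as bars and, under each, the values with 1 library left out. CTDSPL stays between -0.65 and -0.56, while CTDSP1 falls on the other side of 0, at -0.03, without DMSO replicate 1.

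The calls of these genes, which rest on the values they were chosen by and are no test of them, changed with single libraries, while of the directions only that of CTDSP1 turned when 1 library was left out. Without YK replicate 1, 2 or 3 none of the 10 genes was called by limma at an adjusted p-value under 0.05, and 6, 6 and 5 had an unadjusted p-value under 0.05. In those fits 19, 23 and 46 of the 13930 genes tested were called, and 1628, 1907 and 1839 had an unadjusted p-value under 0.05. Without DMSO replicate 1, 5 of the 10 genes were called, all lower (RB1, RBL1, CTDSPL, MYBL2 and FOXM1), while the number among all genes was 1823.

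Levels per kb of annotated exon (GENCODE v44) allow genes to be set side by side. In DMSO the order was CTDSP2 (8877 ± 289 normalized counts per kb), MYBL2 (3726 ± 191), FOXM1 (775 ± 16.1), CTDSP1 (402 ± 71.4), RB1 (376 ± 49.4), RBL1 (293 ± 39.0), RBL2 (286 ± 25.6), LIN9 (177 ± 11.5), LIN54 (163 ± 19.1) and CTDSPL (56.9 ± 2.96; SD, n = 3 each). The DMSO ranges overlapped for the neighbours CTDSP1 and RB1, RB1 and RBL1, RBL1 and RBL2, and LIN9 and LIN54. Within libraries, RB1 was above RBL1 and LIN9 above LIN54 in all 6, whereas the order of CTDSP1 and RB1 and that of RBL1 and RBL2 changed between libraries. CTDSP2 stood at the 99.8th percentile of 13705 genes with a length and CTDSPL at the 37.5th. CDK4, whose product phosphorylates the pocket proteins, lies 64 kb from CTDSP2 on chromosome 12 and stood at the 99.9th percentile, with 50641 ± 3667 normalized counts in DMSO and 46521 ± 1056 with the drug. Annotated exons include ones that Rh30 cells may not use, so these levels are approximate.

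**Figure D3:**
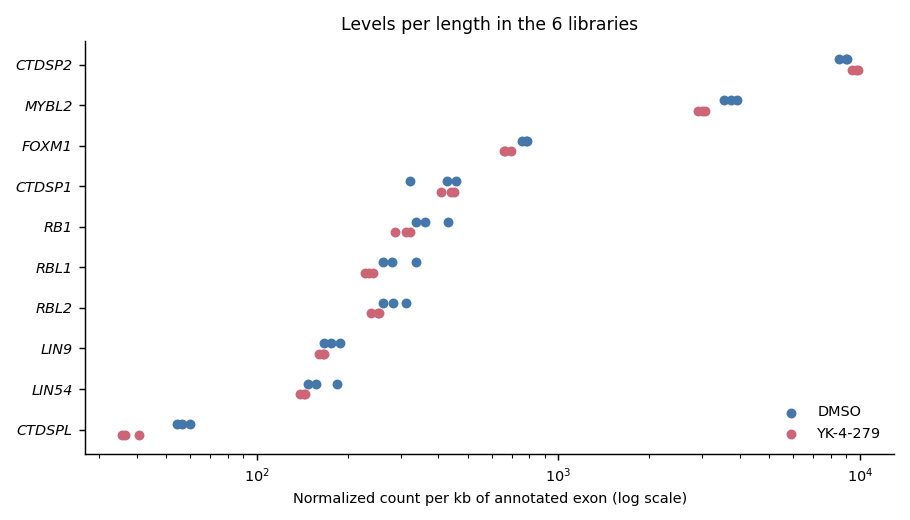
Normalized counts per kb of annotated exon (horizontal log axis) for the 10 genes, with 1 point per library. CTDSP2 lies near 8877 and CTDSPL near 56.9 in DMSO, and the DMSO and drug-treated points are furthest apart for CTDSPL.

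The other subunits and partners of DREAM were taken as a list of 10 genes. Of these, 3 were called lower, beside 2.15% of all genes tested, and the median log2 fold change of the list was -0.07. RBBP4, a histone-binding chaperone in the MuvB core, went from 6712 ± 445 to 5383 ± 130 normalized counts (log2 fold change -0.32, SE 0.06, limma adjusted p = 0.0129). TFDP1, the DP partner of E2F factors, had 4046, 3865 and 3941 normalized counts with DMSO and 3234, 3282 and 3104 with the drug (-0.30, SE 0.06, limma adjusted p = 0.0118). MYB, a relative of MYBL2, had few reads and changed by -0.57 (SE 0.14, limma adjusted p = 0.0487), a call that it lost with edgeR, TMM scaling, no filter, eBayes without trend, the replicate block, and without DMSO replicate 3 or any 1 drug-treated library. LIN52 had a log2 fold change of -0.18 (limma adjusted p = 0.263), and those of E2F4, E2F5, TFDP2, MYBL1 and DYRK1A, the kinase that marks LIN52 for DREAM assembly, lay between -0.09 and 0.10 (between -0.096 and 0.186 without DMSO replicate 1, when MYBL1 was the highest). LIN37 had only 10.2 ± 3.59 normalized counts in DMSO, and its exons overlap other annotated genes on either strand. Without YK replicate 1, 2 or 3, no gene of the list was called by limma, in fits that called 19, 23 and 46 of all genes tested. At an unadjusted p-value under 0.05 in limma these fits had 4, 3 and 3 genes of the list, and 1628, 1907 and 1839 of all genes.

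All 6 E2F genes outside DREAM had log2 fold changes below 0, as had 7245 of the 13930 genes tested. Of the 6, 3 were called lower, beside 2.15% of all genes tested, and the median of the 6 was -0.27. E2F7 and E2F8 encode repressors that are themselves E2F targets. E2F7 had 1933, 1600 and 1816 normalized counts in DMSO replicates 1, 2 and 3 and 1185, 1136 and 1172 in the drug-treated replicates (log2 fold change -0.61, SE 0.07, limma adjusted p = 0.00137). E2F8 changed by -0.48 (SE 0.09, limma adjusted p = 0.0109). The drug-treated libraries lay below all DMSO libraries for both. Of the activators, E2F2 changed by -0.31 (limma adjusted p = 0.0167), while E2F1 at -0.22 and E2F3 at -0.12 did not pass the threshold (limma adjusted p = 0.131 and 0.373), and E2F6 had -0.10. In the fit without DMSO replicate 1, E2F1 was called at -0.32 and E2F3 was at -0.06. E2F7 kept its call without each library in turn. E2F8 lost it without each drug-treated library, and E2F2 without each drug-treated library or DMSO replicate 3, with the replicate block and with quantile normalization. All 3 lost it with eBayes without trend.

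Further phosphatases were taken as a list of 12 genes. It held relatives of the small phosphatases such as CTDSPL2, CTDP1 and CTDNEP1, and subunits of PP1 and PP2A, which also act on pocket proteins. By limma, edgeR and DESeq2 0 of 12 were called, beside 475, 465 and 635 of the 13930 genes tested. At an unadjusted p-value under 0.05 these tools had 2, 2 and 1 of the 12, and 2600, 2567 and 2114 of all genes. With 3.41% of all genes called by limma, nothing is read from a count of 0 in 12. CTDSPL2 had the largest difference, with 2640 ± 369 normalized counts in DMSO and 2246 ± 47.8 with the drug (-0.22, SE 0.08, limma adjusted p = 0.168), and it was called without DMSO replicate 2 but was at -0.11 without DMSO replicate 1. The PP1 genes PPP1CA, PPP1CB and PPP1CC had log2 fold changes of -0.09, -0.11 and -0.15 (PPP1CA was at -0.15 and called without DMSO replicate 1), and the PP2A genes PPP2CA and PPP2R2A had -0.13 and -0.09. PPP1CB, PPP2CA and PPP2R2A were at -0.018, -0.045 and -0.022 without DMSO replicate 1. Over the list 10 genes had values below 0 and 2, CTDP1 and the PP2A gene PPP2CB, above, with a median of -0.09. REST, a repressor that recruits small phosphatases to neuronal genes in other cells, had 2395 ± 105 and 2501 ± 15.1 normalized counts (0.06, limma adjusted p = 0.602). Of its partners, RCOR1 had a log2 fold change of -0.07 (limma adjusted p = 0.640) and SIN3A had -0.23 without overlap between the groups (limma adjusted p = 0.0614), and SIN3A was called lower by DESeq2 and without DMSO replicate 1 or 2. Without the first of these libraries REST was at 0.099 and RCOR1 at 0.011.

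The kinases, cyclins and inhibitors that set the phosphorylation of pocket proteins did not move as 1 group. Of 17 genes 16 were tested, and 5 were called lower and 1 higher, beside 2.15% and 1.26% of all genes tested. The median log2 fold change of the 16 was -0.12. CCNE2, CDK1, CDK2, CCNA2 and CCNE1, which act at the G1/S boundary and after it, changed by -0.53, -0.46, -0.38, -0.34 and -0.33 (limma adjusted p = 0.0106, 0.00741, 0.0117, 0.0122 and 0.0196). The G1 kinases CDK4 and CDK6 had log2 fold changes of -0.12 and -0.01, and CCND1 had -0.16, none past the threshold (limma adjusted p = 0.323, 0.959 and 0.142). The fit without DMSO replicate 1 called CDK4 and CCND1 lower, both at -0.18, and had CDK6 at 0.042. The gene called higher was CDKN2B, which encodes the CDK4 and CDK6 inhibitor p15. Its normalized counts were 78.2, 90.9 and 78.5 with DMSO and 195, 177 and 178 with the drug (log2 fold change 1.15, SE 0.13, limma adjusted p = 7.49e-04). CDKN1A, which encodes p21, had 0.09 (limma adjusted p = 0.536), or 0.012 without DMSO replicate 1. Of 9 corepressors that work with RB1, RBBP7 and DNMT1 were called lower (-0.27 and -0.24, limma adjusted p = 0.0222 and 0.0262), beside 2.15% of all genes tested. HDAC1 had -0.08 (limma adjusted p = 0.482). RBBP7 and DNMT1 lost their calls with the replicate block, with eBayes without trend, and without DMSO replicate 3 or any 1 drug-treated library, and DNMT1 also with quantile normalization. CCNE1 lost its call in the same settings as DNMT1. Without YK replicate 1 or 2, CDKN2B was the only gene of the kinase and cyclin list called, and without replicate 3 it was 1 of 2. Those fits called 19, 23 and 46 of all genes tested.

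The cell cycle genes under DREAM and MuvB were taken as an early list of 52 genes of the G1/S transition and DNA synthesis, known as E2F genes, and a late list of 60 genes of G2 and mitosis, many of them known as CHR genes. All 52 early genes had log2 fold changes below 0, with a median of -0.30, and 31 were called lower (59.6%, against 2.15% of all genes tested) and none higher. RRM2, the small subunit of ribonucleotide reductase and the early gene with the highest mean, had 15157 ± 445 normalized counts in DMSO and 10603 ± 284 with the drug (-0.52, limma adjusted p = 3.74e-04). TYMS (thymidylate synthase), RAD51AP1, BARD1 and DSCC1 changed by -0.57, -0.52, -0.47 and -0.46 (limma adjusted p = 0.0150, 0.00725, 0.0119 and 0.0117). Of the late genes 54 had log2 fold changes below 0 and 6 above, with a median of -0.23, and 18 were called, all of them lower (30%). TOP2A, the mitotic topoisomerase with the highest mean, changed by -0.45, and SPC25, CDCA3, KIF23 and NDC80 by -0.54, -0.42, -0.41 and -0.41 (limma adjusted p = 0.00626 for TOP2A and 0.0144, 0.00741, 0.0206 and 0.0119 for the others). In bulk RNA, fewer cycling cells and less mRNA in each of them cannot be told apart. Without DMSO replicate 1, 45 early and 33 late genes were called, and without YK replicate 1, 2 or 3 there were 1 early gene in each fit and 0, 0 and 2 late genes (26 and 39 late genes had an unadjusted p-value under 0.05 in limma in the first and second of these fits).

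**Figure D4:**
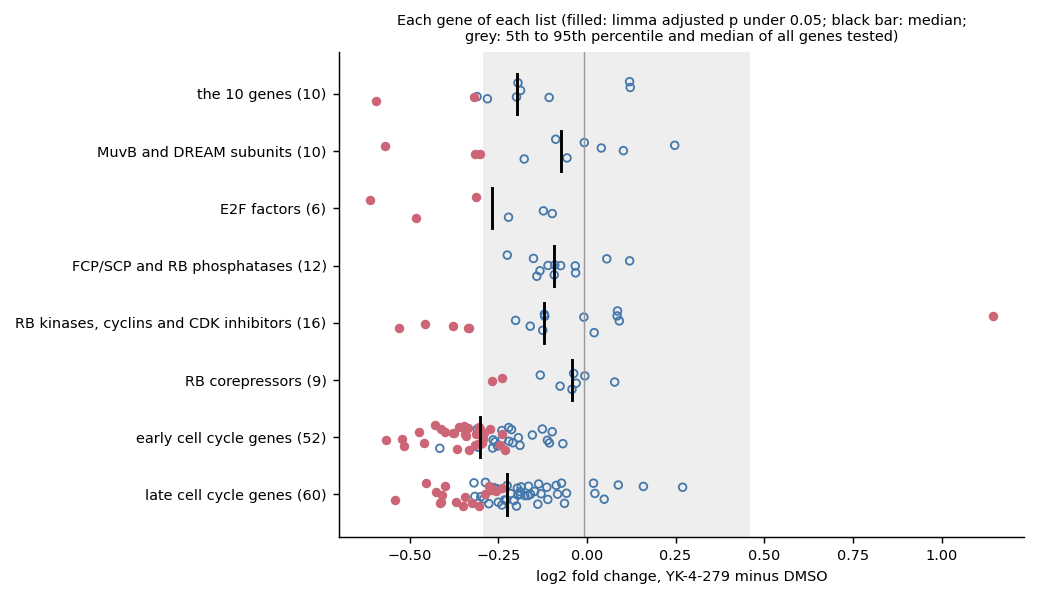
Log2 fold change of YK minus DMSO (horizontal axis) of each gene in the 10 genes and 7 lists of their partners and targets, with filled points for genes at a limma adjusted p under 0.05, a black bar at each median, and the 5th to 95th percentile of all genes tested in grey. The medians are -0.20 for the 10 genes, -0.30 for the early list and -0.23 for the late list, and CDKN2B, at 1.15, is the only filled point to the right of 0.

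The start sites were searched for DNA words that E2F and MuvB proteins are known to read. RefSeq windows of 300 bases (250 before and 50 after a start site, GRCh38.p14) were read on both strands for the E2F words TTTCGCGC, TTTGGCGC, TTTCCCGC and TTTGCCGC, for the shorter E2F word GGCGGGA, whose letters overlap those of TTTCCCGC read on the other strand, and for the CHR word TTTGAA. Windows were given for 8 of the 10 genes, all but CTDSPL and FOXM1, and the window of RB1 lies 172 kb inside the gene. Of these 8 genes, 5 held an E2F word (2 of them, RBL1 and CTDSP1, an 8-letter one) and 3 held the CHR word (LIN9, LIN54 and RBL2), while RB1 and CTDSP2 held none. Short runs from RBL1, MYBL2 and LIN54 are shown because each holds a word in capitals ahead of a RefSeq start site, read 5′ to 3′ along the gene. For MYBL2 and LIN54 that start site, and the run with it, lies inside the GENCODE bounds of the gene given above:
RBL1, chr20:37095998-37096027, minus strand: agatTTTCGCGCgcTTTGGCGCaggtggtt
MYBL2, chr20:43667063-43667092, plus strand: gccgacgcgcttGGCGGGAgatagaaaagt
LIN54, chr4:83010906-83010935, minus strand: ggcccttgtgcgTTTGAAggttggcggggc
RBL1 holds a pair of 8-letter E2F words 2 bases apart, and the window of MYBL2 holds none of these longer words but has GGCGGGA 39 bases ahead of its start site. At least 1 of the 8-letter words was found for 3.99% of all genes with a window and 6.44% of the genes tested, GGCGGGA or one of them for 20.1% and 33.2%, and TTTGAA for 18.2% and 13.7%.

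The early and late lists differed in which word they held. An 8-letter E2F word was found for 24 of 45 early genes with a window (53.3%) and for 3 of 53 late genes (5.66%), and the CHR word for 3 early genes (6.67%) and 38 late genes (71.7%). Both lists were written from knowledge of such genes, so these shares describe the lists and were not tested. Examples from genes named above are an E2F word in TYMS and CHR words in TOP2A and KIF23:
TYMS, chr18:657603-657632, plus strand: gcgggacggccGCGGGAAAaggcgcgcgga
TOP2A, chr17:40418030-40418059, minus strand: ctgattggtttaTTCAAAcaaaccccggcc
KIF23, chr15:69414282-69414311, plus strand: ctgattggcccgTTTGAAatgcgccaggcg
The capitals in TYMS and TOP2A are the words TTTCCCGC and TTTGAA on the other strand. The median log2 fold change was -0.30 for early genes with an 8-letter E2F word (16 of 24 called lower) and -0.29 for those without (9 of 21). For late genes it was -0.24 with the CHR word (12 of 38 called lower) and -0.18 without (3 of 15). These differences between genes with and without a word were not tested.

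**Figure D5:**
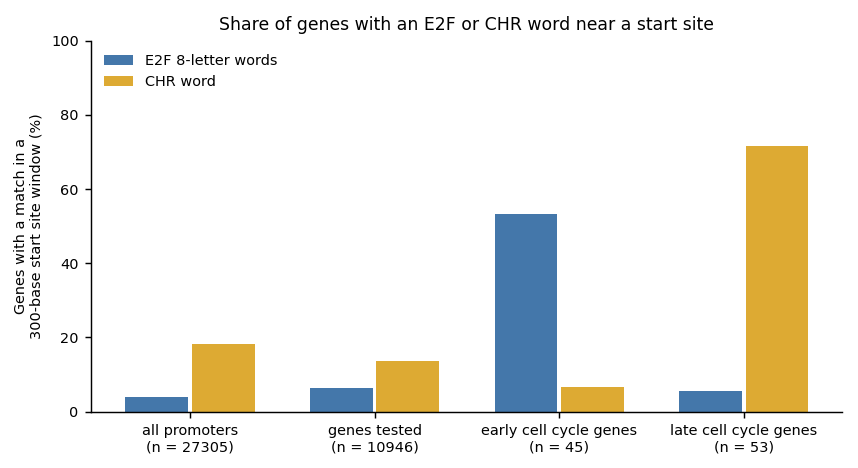
Percent of genes (vertical axis, from 0) with an 8-letter E2F word or the CHR word in a 300-base start site window, for all promoters, the genes tested and the early and late lists, with the number of genes below each pair of bars. The E2F bar is highest in the early list, at 53.3%, and the CHR bar in the late list, at 71.7%.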

How the data were processed

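Per the labels and the study's methods, the authors trimmed reads, aligned them to hg38 with STAR 2.7.9a, counted reads per gene and deposited a normalized signal per gene, reads divided by a size factor of each library. DESeq2 1.44.0 is listed in the submitters' processing notes. The annotation used is not given in the sources used here. Of 35269 rows, 1 carried no gene symbol, held at most 6 reads in any library and was dropped. Dividing each library by its smallest nonzero value returned whole reads for 100% of values (tolerance 0.01). Depth was 16724650 to 24677433 reads per library.

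The 13930 genes whose mean reached 10 were fitted with limma 3.58.1 (R 4.3.3, eBayes with trend, two-sided) after a log2 transform with a pseudocount of 1, which understates changes of low genes, and p-values were adjusted by Benjamini-Hochberg over all of them. The alternatives tried were edgeR 4.0.16 and DESeq2 1.42.0 (both run on whole reads), scaling by TMM or quantiles, a pseudocount of 10, no filter on low genes, eBayes with no trend, blocking on replicate number, and dropping single libraries. The code was tested on simulated data. The genes and lists were chosen with earlier results of these data known. Of lists with over 17 genes, the one with the highest mean and the 5 largest changes (adjusted p under 0.05, mean at least 100, no overlap) were named. Gene positions and exon lengths are from GENCODE v44 on hg38, and sequences from RefSeq.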

Additional observations from a re-analysis of the deposited data

How the results depend on the processing

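The number of genes called was 475 (176 higher and 299 lower, 37.1% higher). Quantile normalization gave 277 (132 and 145, 47.7% higher), a replicate block gave 180, and fits with 1 library left out gave from 19 to 1823. With eBayes without trend 33 were called (30 and 3), and 2248 had an unadjusted p-value under 0.05 in limma. Of the 10 genes 2 were called, 4 with DESeq2 (635 of all genes), 0 with eBayes without trend (5 at an unadjusted p-value under 0.05 in limma), and from 0 to 5 with 1 library left out. The DREAM subunits called were 3, 0 with eBayes without trend (4 unadjusted, limma), and from 0 to 3 with 1 library left out. Early genes called were 31, falling to 17 under quantile normalization, 1 when eBayes had no trend (45 unadjusted, limma) and 14 with a replicate block. They ranged from 1 to 45 with 1 library left out. Late genes called were 18, and 9, 0 (28 unadjusted, limma) and 8 in those settings, and from 0 to 33 with 1 library left out. Kinases, cyclins and inhibitors called were 6, 1 with eBayes without trend, and from 1 to 11 with 1 library left out, and phosphatases from 0 to 1. The cause was not tested. Deviations of same-numbered libraries from their group means had correlations of -0.098, -0.027 and -0.027. With so few libraries these values cannot show whether the replicates were handled as pairs, and the labels do not say. The replicate block left CTDSPL and MYBL2 as the 2 of the 10 genes called.

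Among genes not called, the sign turned for LIN37 (-0.03 with quantile normalization and -0.034 without DMSO replicate 1, up to 0.453 without DMSO replicate 3), E2F4 (0.01 with quantile normalization), RCOR1 (0.011 without DMSO replicate 1, down to -0.124 without DMSO replicate 3), E2F5 (0.011 with TMM scaling, 0.007 with edgeR, 0.142 without DMSO replicate 1 and 0.054 without YK replicate 1, down to -0.121 without DMSO replicate 2) and CDK6 (0.01 with TMM scaling, 0.04 with quantile normalization, 0.009 with edgeR, 0.004 with DESeq2 and 0.042 without DMSO replicate 1, down to -0.043 without DMSO replicate 2). With 214 reads at the least, depth limited CTDSPL more than the other 9 genes.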
